A study of Mus musculus with 6 samples.

Results

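Epithelial cell junction genes were examined as a set of 30 named genes among the 56691 genes of the deposited table, all 30 found by gene symbol with 1 row each. The set covers adherens junctions, desmosomes, tight junctions, the nectin family and gap junctions. RNA had been sequenced from mouse bone marrow-derived macrophages that M-CSF, a growth factor for this lineage, had induced from bone marrow cells. They had been sorted once a co-culture with mEC25, called a cancer cell line in the labels, had ended. The contact group (3 libraries) had touched the mEC25 cells, and the transwell group (3 libraries) had been kept apart from them by a transwell. Macrophages of both groups had been induced with M-CSF and cultured with mEC25 cells, and no library of macrophages alone or of mEC25 cells alone was analysed here. The labels give no strain, genotype, age, co-culture time or sort marker, nor whether the replicates are separate animals or cultures, so the p-values rest on the spread between these 6 libraries, which may be technical. The comparison asks which transcripts differ between sorted macrophages that had touched the cancer cells and those that had not.

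Cell junctions hold epithelial sheets together. In adherens junctions, cadherins of neighbouring cells bind each other and are tied to actin by catenins. In desmosomes, desmogleins and desmocollins are tied to keratin filaments by plakoglobin, plakophilins and desmoplakin. Claudins and occludin seal the space between cells at tight junctions, on a scaffold of zonula occludens proteins, and connexins form the channels of gap junctions. Several of these proteins also work outside epithelia: beta-catenin is the effector of canonical Wnt signalling, and nectin-2 and the poliovirus receptor are ligands of the T and NK cell receptors DNAM-1 and TIGIT.

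The RefSeq table of start regions (GRCm38.p6) held 17 of the 30 members. The letters CACCTG, or CAGGTG on the other strand, are the E-box bound by repressors of the Snail and Zeb families, whose genes are described below. The 250 bases before the start held them in 8 of these 17 genes (Cldn4, Cldn7, Epcam, F11r, Gjb2, Nectin2, Ocln and Tjp3). Some genes have 2 start regions in the table: by region, 9 of the 22 of these genes held the letters, and 17.2% of all 32851. Of these 8, Epcam and F11r were higher in contact, Nectin2 was lower, and the others were not called or were too low to be tested. The windows of the 3 genes below are shown because all rose in contact libraries and they differ in these letters: Epcam holds 2 matches, F11r holds 1 and Jup holds 0. Each is written 5′ to 3′ on the strand of the gene, with the E-box letters in capitals. The Epcam window is chr17:87635729-87635978 on the plus strand, that of F11r is chr1:171437311-171437534 on the plus strand, with 26 bases inside the GENCODE gene left out, and that of Jup is chr11:100397791-100398040 on the minus strand.
Epcam: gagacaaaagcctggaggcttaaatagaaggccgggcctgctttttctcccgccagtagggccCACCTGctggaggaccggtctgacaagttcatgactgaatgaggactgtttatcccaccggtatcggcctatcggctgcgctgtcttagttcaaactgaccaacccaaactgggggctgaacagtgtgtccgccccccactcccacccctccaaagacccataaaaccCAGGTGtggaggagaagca
F11r: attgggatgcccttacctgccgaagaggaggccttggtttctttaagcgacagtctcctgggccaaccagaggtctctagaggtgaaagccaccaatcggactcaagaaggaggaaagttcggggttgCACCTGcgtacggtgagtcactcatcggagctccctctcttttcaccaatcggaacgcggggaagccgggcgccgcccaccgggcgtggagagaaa
Jup: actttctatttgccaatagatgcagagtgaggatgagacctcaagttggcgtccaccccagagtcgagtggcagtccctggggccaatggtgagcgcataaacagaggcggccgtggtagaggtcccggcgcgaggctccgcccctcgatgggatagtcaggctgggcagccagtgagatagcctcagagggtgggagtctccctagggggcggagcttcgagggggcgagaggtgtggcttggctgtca
The Epcam matches begin 187 and 19 bases before the start and that of F11r 122 bases before it. The letters AACCNGTT (AACNGGTT on the other strand), which Grainyhead-like factors bind, were in 0 of the 22 start regions and in 1.79% of all. The GC box GGGCGG was more frequent in these windows as well, in 14 of the 22 and in 32.7% of all. The AP-1 letters TGANTCA were in 3 of the 22 and in 6.75% of all, a count too small to compare. G and C made up 40% to 74.8% of each of the 22, against a median of 52.4% over all start regions. The part of this in the matches was not tested. The windows of Ctnnb1 overlap each other, as do those of Ocln. A match of letters is a description of the window and not a bound site.

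The contact libraries held between 20911880 and 22563835 counts and the transwell libraries between 18173192 and 18895818. Levels are FPKM (counts scaled to exon length and library total) as deposited. The quasi-likelihood test of edgeR was run on 14113 genes, of which 3016 (21.4%) were higher and 2270 (16.1%) were lower in contact at a Benjamini-Hochberg adjusted p under 0.05, so 37.5% were called in all. Marker genes of macrophages were present in both groups: all 15 listed markers were tested, 4 were higher and 6 were lower in contact, and their summed level was 18004 to 19816 FPKM in contact and 19489 to 20814 FPKM in transwell libraries. Csf1r, the M-CSF receptor gene, averaged 373 ± 26.3 FPKM in contact and 284 ± 9.2 FPKM in transwell libraries (SD, n = 3 each). The pan-leukocyte gene Ptprc averaged 37.2 ± 6.28 and 22.4 ± 5.76 FPKM, and Adgre1, the gene of F4/80, 578 ± 57.1 and 1228 ± 83.7 FPKM, in contact and transwell libraries.

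Taken as a sum, markers of keratinocytes and other epithelia were high in contact libraries and low in transwell libraries. The summed level of 25 listed markers, none of them a junction gene of the set, was 1035, 1564 and 890.1 FPKM in contact replicates 1, 2 and 3, against 7.7, 6.33 and 7.09 FPKM in the transwell libraries. Of these 25, 17 were tested and all 17 were higher in contact. Of all tested genes, 21.4% were higher, and of those under 1 FPKM in transwell libraries 40.2% were. Most of the 17 had too few transwell counts to pass a filter on low counts there, so a difference was built into their selection. Krt15 and Grhl2 had no count in any transwell library. Krt7, Krt19, Ehf and Prss8 averaged 0.07, 0.0733, 0.0133 and 0.0167 FPKM in contact libraries and were not tested. Sfn and Spint1 averaged 4.04 and 1.51 FPKM in transwell libraries. The basal keratin genes Krt5 (376 ± 120 against 0.0967 ± 0.0379 FPKM) and Krt14 (282 ± 83.3 against 0.207 ± 0.0666 FPKM) led the list. These markers moved with the junction genes described next, and their part in the junction results was not tested. In bulk RNA, more cells of a type and more RNA per cell cannot be told apart.

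Of the 30 junction genes, 25 passed the filter on low counts, and of these 18 were higher, 2 were lower and 5 were not called. Their median log2 change was 4.24, against 0.03 over all tested genes. Over tested genes with a mean transwell level under 1 FPKM that median was 0.57, and over the rest it was -0.04. FPKM values of the groups did not overlap for 21 of the 25, as for 51.2% of all tested genes. The set fell into unlike groups when divided at a mean transwell level of 1 FPKM. Of the 9 genes at or above it, 3 rose, 2 fell and 4 were not called, with log2 changes between -0.57 and 0.57 and a median of 0.19. Of 10383 tested genes at that level, 14.6% were higher and 20.6% were lower, 35.2% in all. Of the 21 genes below it, 15 rose, none fell, 1 was not called and 5 were too low to be tested. Of 3730 tested genes below that level, 40.2% were higher and 3.43% were lower, 43.6% in all. For 12 of the 16 tested junction genes under 1 FPKM, the filter was passed only through the contact libraries. A difference was thus built into their selection, so the count and the median of 4.24 are descriptions. Jup, F11r and Nectin1 passed it through the transwell libraries too, and Cldn1 through libraries of both groups. The genes nearest to the line were Tjp3 (1.4 FPKM in transwell) just above it and F11r (0.753 FPKM) just below it.

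**Figure D1:**
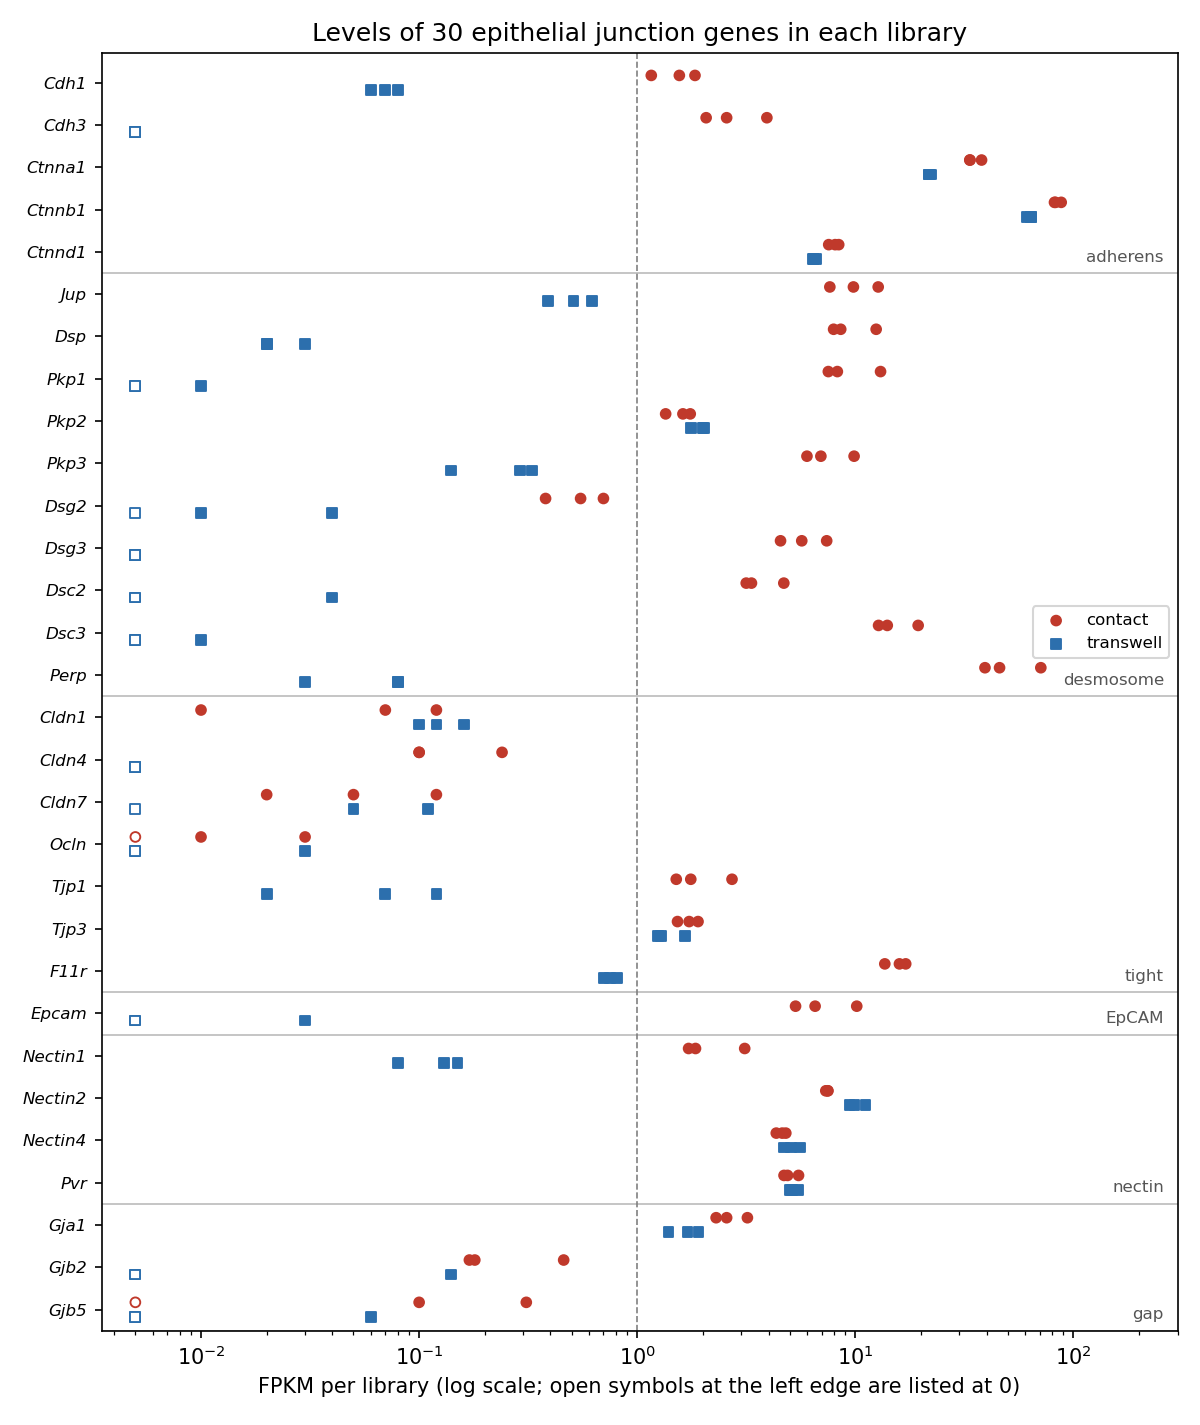
Level of each of the 30 junction genes in FPKM (log axis) in the 3 contact libraries (red circles, upper row of each gene) and the 3 transwell libraries (blue squares, lower row), grouped by junction type. Open symbols at the left edge are libraries listed at 0, and the dashed line marks 1 FPKM. Most desmosome genes lie far apart in the groups, while the catenin genes Ctnna1, Ctnnb1 and Ctnnd1 and the nectin family genes Nectin2, Nectin4 and Pvr lie close together.

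Desmosome genes, with 10 members the largest of the 5 junction types, had the most calls: 9 rose and 1, Pkp2, was lower. Of all tested genes, 21.4% were higher and 16.1% were lower, and of those under 1 FPKM in transwell libraries 40.2% were higher. Of the 9, only Jup passed the filter on low counts through the transwell libraries too. For the others a difference was built into their selection, so the count is a description. Perp (ENSMUSG00000019851, chromosome 10, 18845020 to 18857073 on GRCm38), a tetraspan membrane protein of desmosomes, stood at 45.8, 70.9 and 39.3 FPKM in contact libraries, against 0.08, 0.03 and 0.08 FPKM in transwell libraries. Every contact library lay far above every transwell library, and Perp rose by 9.47 ± 0.38 on the log2 scale (SE, edgeR adjusted p = 3.67e-07). It had the second highest contact level of the 30 genes, after beta-catenin. Dsp, the gene of desmoplakin, which binds keratin filaments, stood at 8.57, 12.5 and 7.95 FPKM in contact and at 0.03, 0.02 and 0.02 FPKM in transwell libraries (log2 change 8.60 ± 0.29, adjusted p = 1.66e-07). Jup, the gene of plakoglobin, which serves both desmosomes and adherens junctions, had 9.8, 12.7 and 7.64 FPKM in contact and 0.51, 0.62 and 0.39 FPKM in transwell libraries. It was 18.3-fold higher in contact (log2 change 4.19 ± 0.22, adjusted p = 1.23e-06). Over the transwell libraries Jup had 181 counts, against 12 for Dsp and 7 for Perp.

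The desmosomal cadherins were read mostly in contact libraries. Dsc3, a desmocollin of basal keratinocytes, had 14, 19.4 and 12.8 FPKM in contact and 0, 0.01 and 0 FPKM in transwell libraries, where it had 1 count in all. The ratio of its counts, scaled by library size, was 4249.4 with a 95% counting interval from 762.4 to 167871.9 (edgeR adjusted p = 1.62e-07). Dsg3, the partner desmoglein, had 5.68, 7.39 and 4.54 FPKM in contact and no count in transwell libraries. With 3 counts over the whole transwell group taken as the floor, Dsg3 was at least 697.8-fold higher. Dsc2 had 3.34, 4.7 and 3.16 FPKM in contact and 0, 0.04 and 0 FPKM in transwell libraries (log2 change 7.87 ± 0.46). All 4 transwell counts of Dsc2 were in replicate 2, as was the 1 transwell count of each of Dsc3, Pkp1 and Epcam. Without that library the fitted change of Dsc2 was 11.61, a value that then rests on no transwell count. Dsg2 was the lowest of the desmosomal cadherins, with 0.55, 0.7 and 0.38 FPKM in contact and 0, 0.04 and 0.01 FPKM in transwell libraries (4.79 ± 0.58, adjusted p = 1.57e-04). The change of Dsg2 was 4.21 without transwell replicate 1 and 6.10 without transwell replicate 2, and it was called in both. Intervals and floors cover counting error only.

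These desmosomal cadherin genes lie together on chromosome 18. Dsc3 and Dsc2 are 28.3 kb apart, and Dsg3 and Dsg2 are 10.6 kb apart. The other cadherin genes of the same cluster stayed near 0 in both groups: over all contact libraries, Dsg1b had 12 counts, Dsc1 had 8, Dsg4 had 1 and Dsg1a and Dsg1c had 0, and all of them had 0 in transwell libraries. Desmoglein-1 and desmocollin-1 are known from the upper, differentiated layers of stratified epithelia, and desmoglein-3 and desmocollin-3 from the basal layers.

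The plakophilins, armadillo proteins that link desmosomal cadherins to desmoplakin, went different ways. Pkp1 had 8.27, 13.1 and 7.52 FPKM in contact and 0, 0.01 and 0 FPKM in transwell libraries, with 1 transwell count in all and a count ratio of 2460.9 (interval from 441.4 to 97232.7). Pkp3 had 6.95, 9.87 and 6 FPKM in contact and 0.29, 0.14 and 0.33 FPKM in transwell libraries (log2 change 4.78 ± 0.28). Pkp2, by contrast, had 1.75, 1.35 and 1.62 FPKM in contact and 2.02, 1.77 and 1.99 FPKM in transwell libraries. The groups of Pkp2 only just failed to overlap, and its fall of -0.41 ± 0.14 on the log2 scale had an adjusted p of 0.0497, a call that 12 of 16 alternative settings ended. Among them, it ended when transwell replicate 1 (-0.36), transwell replicate 3 (-0.39) or contact replicate 1 (-0.49), 2 (-0.30) or 3 (-0.43) was left out.

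**Figure D2:**
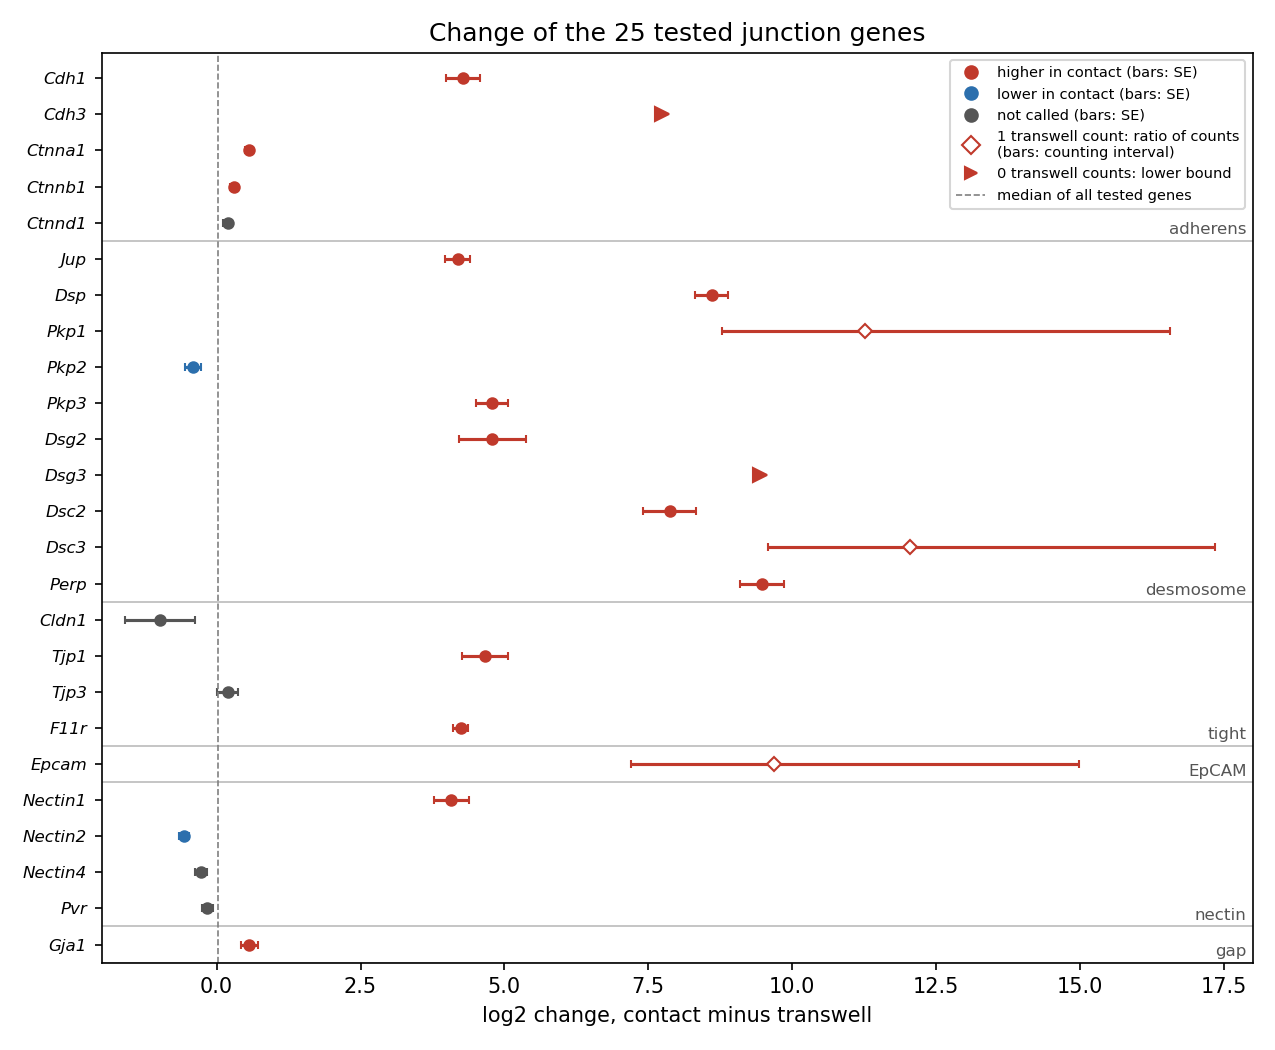
Log2 change, contact minus transwell, of the 25 tested junction genes by junction type. Circles are edgeR estimates with SE bars, diamonds are ratios of scaled counts with their 95% counting interval for the 3 genes with 1 transwell count, and triangles are lower bounds for the 2 genes with 0. The dashed line is the median of all tested genes at 0.03. Genes with a transwell mean of 1 FPKM or more cluster around that line, between -0.57 for Nectin2 and 0.57 for Gja1.

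Adherens junction genes divided by role: the cadherins were near absent without contact, while the catenins were expressed in both groups. Cdh1, the gene of E-cadherin, had 1.56, 1.84 and 1.16 FPKM in contact and 0.07, 0.08 and 0.06 FPKM in transwell libraries (log2 change 4.28 ± 0.30, adjusted p = 5.05e-06). Cdh3, the gene of P-cadherin, which basal epithelial cells carry, had 2.57, 3.93 and 2.07 FPKM in contact and no transwell count, so it was at least 212.4-fold higher. P-cadherin transcripts were thus above E-cadherin transcripts in each contact library. The genes are 46.1 kb apart on chromosome 8 (Cdh3 at 106510891 to 106557297 and Cdh1 at 106603351 to 106670246 on GRCm38).

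Ctnnb1 (chromosome 9, 120929216 to 120960507), the gene of beta-catenin, was the highest of the 30 genes in both groups. It had 81.9, 82.7 and 87.9 FPKM in contact and 63.9, 63.6 and 61.4 FPKM in transwell libraries. The groups did not overlap, and the rise was 0.30 ± 0.07 on the log2 scale, or 1.23-fold (edgeR adjusted p = 0.00518). Ctnna1, the gene of alpha-catenin, which joins the cadherin complex to actin, had 33.5, 37.9 and 33.6 FPKM in contact and 21.8, 22.2 and 21.8 FPKM in transwell libraries. It rose 1.47-fold (log2 change 0.56 ± 0.07, adjusted p = 2.09e-04). Ctnnd1, the gene of p120-catenin, which holds cadherins at the membrane, had 8.08, 7.55 and 8.39 FPKM in contact and 6.43, 6.41 and 6.58 FPKM in transwell libraries. Its groups did not overlap either, but the change of 0.19 ± 0.08 was not called (adjusted p = 0.0907). It was called higher with scaling by library totals only (log2 change 0.31, adjusted p = 0.0118, against a range of 0.0118 to 0.337 over the alternatives), a scaling that moved the median of all tested genes by 0.12.

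Tight junction genes were read unevenly. F11r (ENSMUSG00000038235, chromosome 1, 171437535 to 171464603), the gene of junctional adhesion molecule A, which leukocytes and platelets carry as well as epithelia, had 15.9, 17 and 13.7 FPKM in contact and 0.81, 0.7 and 0.75 FPKM in transwell libraries. It was 18.9-fold higher (log2 change 4.24 ± 0.13, adjusted p = 1.40e-07), with the smallest SE of the 15 genes that rose from under 1 FPKM. Tjp1, the gene of zonula occludens 1, the scaffold under claudins, had 1.76, 2.72 and 1.51 FPKM in contact and 0.12, 0.02 and 0.07 FPKM in transwell libraries (4.67 ± 0.40, or 5.33 without transwell replicate 1). Its relative Tjp3 had 1.9, 1.53 and 1.73 FPKM in contact and 1.65, 1.29 and 1.25 FPKM in transwell libraries, with overlapping groups and no call (0.19 ± 0.18, adjusted p = 0.457).

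The 3 claudin genes of the set and the occludin gene were close to 0 in both groups. Cldn1 had 22 counts over the contact libraries and 34 over the transwell libraries, a change of -0.98 ± 0.61 that was not called (adjusted p = 0.243). Cldn4 had 17 counts in contact and 0 in transwell, Cldn7 had 8 and 6, and Ocln, the occludin gene, had 4 and 2, and none of these 3 reached the level needed for a test. In FPKM, no library of either group passed 0.24 for any of the 4 genes. Outside the set, the claudin gene Cldn12, named after its values were seen, was higher in contact, at 4.31 ± 1.54 FPKM against 0.637 ± 0.129 FPKM in transwell libraries (log2 change 2.64 ± 0.26, adjusted p = 4.69e-05). Epcam, the gene of an epithelial adhesion molecule that binds claudin-7, was much higher, at 6.54, 10.2 and 5.32 FPKM in contact and 0, 0.03 and 0 FPKM in transwell libraries. Epcam had 1 transwell count, and its count ratio was 820.3 with an interval from 146.9 to 32431.2 (edgeR adjusted p = 2.06e-06).

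Nectins bind each other and the cadherin complex through afadin. Of the 4 members of this group, the nectin genes Nectin1, Nectin2 and Nectin4 and the related Pvr, 1 rose, 1 fell and 2 were not called. Nectin1 had 1.85, 3.11 and 1.72 FPKM in contact and 0.15, 0.13 and 0.08 FPKM in transwell libraries (log2 change 4.08 ± 0.31, adjusted p = 8.93e-06). Nectin2 (chromosome 7, 19716644 to 19750483) went the other way, with 7.46, 7.49 and 7.32 FPKM in contact and 11.1, 9.92 and 9.4 FPKM in transwell libraries. Every contact library lay below every transwell library, and Nectin2 fell by 0.57 ± 0.09 on the log2 scale (adjusted p = 0.00100), a call that held under all 16 alternatives. Nectin4 had 4.34, 4.8 and 4.62 FPKM in contact and 4.69, 5.57 and 5.09 FPKM in transwell libraries, and its change of -0.27 ± 0.10 was not called (adjusted p = 0.0523). With median-ratio scaling it was called lower (-0.29, adjusted p = 0.0407), as it was without transwell replicate 1 (-0.32, adjusted p = 0.0333), and its adjusted p over the alternatives reached 0.285. Pvr, the gene of the poliovirus receptor, had 4.71, 4.89 and 5.49 FPKM in contact and 4.99, 5.14 and 5.47 FPKM in transwell libraries (-0.16 ± 0.09, adjusted p = 0.204). F11r and Nectin4 are neighbours 48.9 kb apart on chromosome 1, and F11r rose while Nectin4 was not called.

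Among gap junction genes, Gja1, the gene of the connexin found in macrophages and many other cells, had 2.3, 3.2 and 2.57 FPKM in contact and 1.39, 1.91 and 1.7 FPKM in transwell libraries. The groups did not overlap, and the rise was 0.57 ± 0.14 on the log2 scale (adjusted p = 0.0113). Gjb2 and Gjb5, connexins of stratified epithelia, were too low to be tested. Gjb2 had 43 counts in contact and 6 in transwell libraries, and Gjb5 had 15 and 2.

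The genes that rose from under 1 FPKM varied together over the contact libraries. In all 15, contact replicate 2 was highest and replicate 3 lowest, the order of the summed keratinocyte and epithelial markers. Of 24 genes of the same junctions outside the set that rose from under 1 FPKM, 16 had this order. The share of all tested genes with this order is not given here. Relative to the mean of the 3 contact libraries, the markers stood at 0.89, 1.34 and 0.765 in replicates 1, 2 and 3. The 15 genes had medians of 0.9, 1.29 and 0.772, with ranges of 0.831 to 1.03, 1.1 to 1.4 and 0.699 to 0.879. Perp, among the steadiest of the 15 against the markers, was 13.6%, 13.9% and 14% of the Krt5 level in FPKM in contact replicates 1, 2 and 3. Cdh1, among the least steady, was 0.464%, 0.36% and 0.413% of it. Over the 15 genes the coefficient of variation of FPKM between contact libraries had a median of 26.5%. It was 5.88% when each gene was taken as a percent of the summed marker FPKM in its library, and it was smaller for 14 of the 15. Depth and library preparation are shared by all genes of a library, so these points are not independent.

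F11r was the exception, with coefficients of 11.1% for its level and 18.7% for its percent of the markers. It stood at 1.03, 1.1 and 0.879 of its contact mean in replicates 1, 2 and 3, a flatter course than that of the markers. The 9 genes with a transwell mean of at least 1 FPKM had medians of 0.973, 0.983 and 1.01 there, with no common order. Among the 3 of them that rose, the excess over the transwell mean was 11.5, 16 and 11.6 FPKM for Ctnna1, 0.633, 1.53 and 0.903 FPKM for Gja1, and 18.9, 19.8 and 24.9 FPKM for Ctnnb1 in contact replicates 1, 2 and 3. The excess of Ctnna1 and that of Gja1 were highest in the library where the markers were highest, and that of Ctnnb1 was highest in the library where they were lowest.

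**Figure D3:**
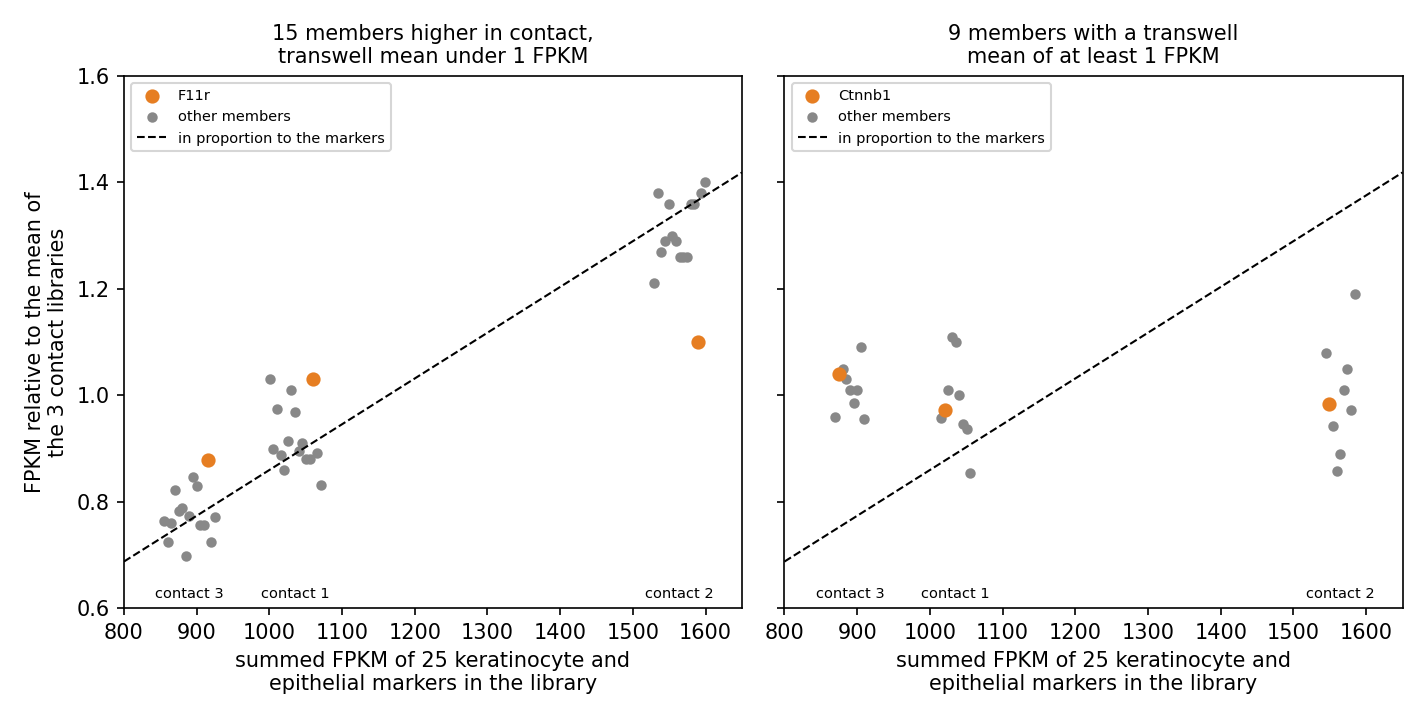
FPKM of junction genes in each contact library relative to the gene's mean over the 3 contact libraries, against the summed FPKM of 25 keratinocyte and epithelial markers in that library (890.1, 1035 and 1564). Points are spread slightly sideways so that they can be told apart, and the dashed line marks levels in proportion to the markers. The 15 genes that rose from under 1 FPKM (left) lie near that line, Cdh1 and Dsg2 less closely and F11r least. The 9 genes with a transwell mean of at least 1 FPKM (right) lie around 1 in all 3 libraries.

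The summed markers of the other cell types listed did not show that order over the contact libraries, although single markers did, 1 each in the macrophage (Aif1), endothelial (Egfl7) and fibroblast (Postn) lists, named after their values were seen. Of 10 fibroblast markers, 8 were tested and 5 were higher in contact, with a summed level of 25.6, 17.5 and 11.1 FPKM in contact replicates 1, 2 and 3 and of 8.39, 3.91 and 3.72 FPKM in the transwell libraries. Of 10 endothelial markers, 4 were tested, 3 were higher and 1 was lower, with sums of 12.5 to 14.6 FPKM in contact and 7.35 to 7.59 FPKM in transwell libraries. Pecam1, which macrophages also express, made up most of these sums, and Tek and Robo4 had no transwell count. Of 6 platelet markers, 4 were tested and all 4 were lower in contact, with sums of 941.5 to 1022.8 FPKM in contact and 2131 to 2553 FPKM in transwell libraries, nearly all of it Pf4, which macrophages can also express. Of all tested genes, 21.4% were higher and 16.1% were lower in contact. Of those under 1 FPKM in transwell libraries, 40.2% were higher and 3.43% were lower. The part of these fibroblast, endothelial and platelet markers in the junction results was not tested.

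A wider list of 86 other genes of the same junctions, taken by function, gave 46 tested genes, of which 32 were higher, 1 was lower and 13 were not called, with a median log2 change of 1.45. Of all tested genes, 21.4% were higher and 16.1% were lower. Of the 17 with a transwell mean of at least 1 FPKM, 8 rose and 1 fell (median 0.34), where 14.6% of all tested genes at that level were higher and 20.6% were lower. Of the 29 tested genes below it, 24 rose and none fell (median 4.87), where 40.2% of all tested genes were higher and 3.43% were lower. The filter was passed only through the contact libraries by 23 of these 29, which fixed their direction. Among the rising genes with the highest contact levels were the polarity genes Prkci (0.80 ± 0.10), Pard6g (7.69 ± 0.41) and Llgl1 (0.34 ± 0.09). Pkp4, a plakophilin relative found at many cell contacts (0.41 ± 0.08), and Cadm1, an immunoglobulin-type adhesion gene (1.04 ± 0.09), rose as well. Prkci encodes an atypical protein kinase C that acts with Par6 proteins, of which Pard6g stood at 9.4 ± 2.76 FPKM in contact and 0.04 ± 0.0361 FPKM in transwell libraries. The 1 gene that fell was Sympk (8.51 ± 0.541 FPKM in contact and 12.5 ± 0.182 FPKM in transwell), a tight junction plaque protein better known as a scaffold of mRNA end processing. Of the 34 other tight junction genes, 20 were too low to be tested, most of them claudins.

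**Figure D4:**
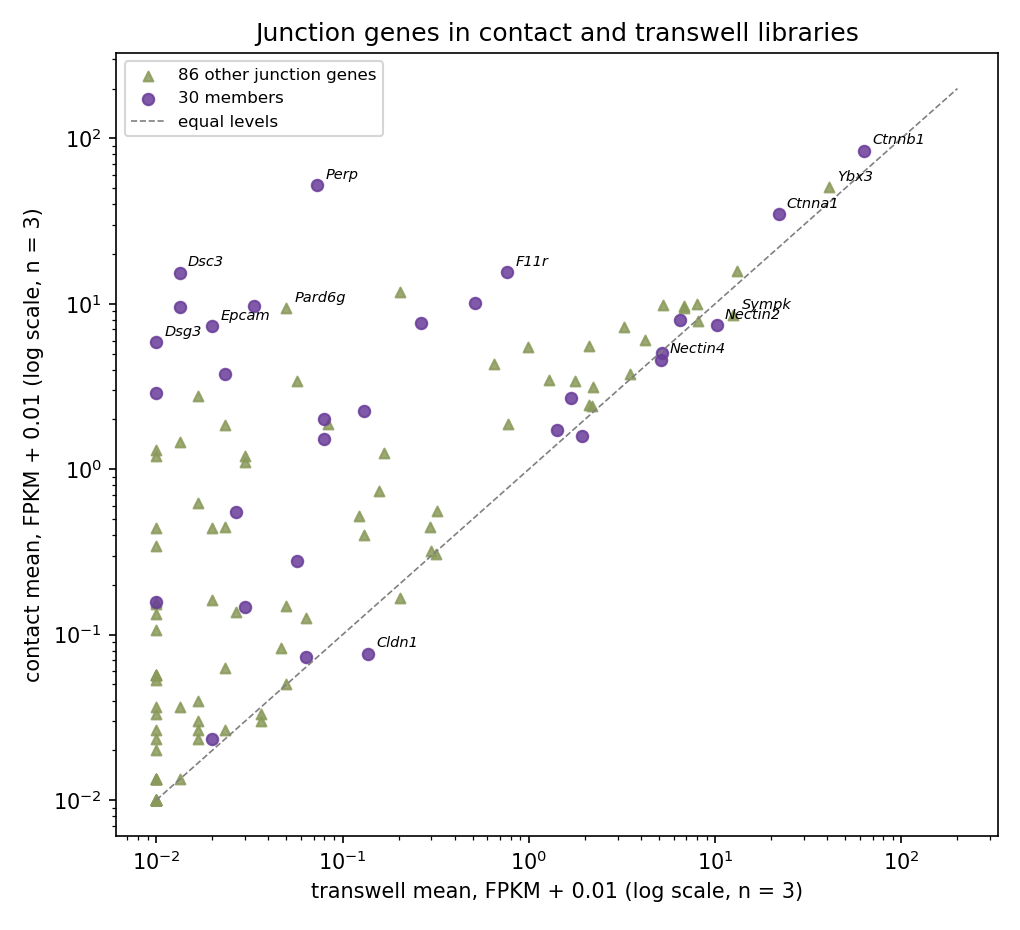
Mean FPKM + 0.01 in contact libraries against the mean in transwell libraries (log axes, n = 3 each) for the 30 junction genes (circles) and 86 other junction genes (triangles). The dashed line marks equal levels. Genes with a transwell mean above 1 FPKM lie near the line, and genes far above it, such as Perp, Dsc3, Epcam and Pard6g, have transwell means under 1 FPKM.

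Of 10 transcription factors known to control junction genes, 8 were tested, 5 rose and none fell. Of all tested genes, 21.4% were higher and 16.1% were lower, and of those under 1 FPKM in transwell libraries 40.2% were higher. Snai2, Twist1 and Klf5 had 15, 3 and 16 counts over the transwell libraries, too few to pass the filter on low counts there. For them a difference was built into their selection, so the count of 5 is a description. All 5 genes that rose were highest in contact replicate 2, and 4 of them (Snai2, Klf4, Klf5 and Tcf3) had the order of the keratinocyte and epithelial markers over the contact libraries. The part of those markers in these results was not tested. Snai2, the gene of the E-box repressor Slug, stood at 3.26 ± 0.745 FPKM in contact and 0.133 ± 0.0306 FPKM in transwell libraries (log2 change 4.46 ± 0.31, adjusted p = 4.84e-06). Twist1 (1.39 ± 0.422 and 0.0333 ± 0.0351 FPKM) had 148 counts in contact and 3 in transwell libraries, a ratio of 38.6 after scaling (95% counting interval from 12.9 to 189.2). The Kruppel-like factor genes Klf4 (14.1 ± 3.86 and 2.01 ± 0.327 FPKM, log2 change 2.69 ± 0.20) and Klf5 (5.48 ± 0.35), which act in epithelial differentiation, and Tcf3 (0.35 ± 0.10) were also higher in contact. Zeb2, a repressor of Cdh1 that macrophages express, stood at 18.4 ± 3.38 FPKM in contact and 15.7 ± 4.15 FPKM in transwell libraries and was not called (0.12 ± 0.18, adjusted p = 0.656).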

How the data were processed

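The authors deposited raw read counts and FPKM per Ensembl gene for each library, per the file headers, with the exonic length in bases. The genome was GRCm38 (mm10), per the submitters' processing notes; the sources used here name no aligner, counter or strand setting. The bodies of 11 of the 30 genes overlap another annotated gene, 9 of them on the opposite strand, so their reads may be split in unknown ways. Positions are from GENCODE M21 by gene ID, and start regions from RefSeq.

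Counts were filtered with filterByExpr (minimum count 10), scaled with TMM and compared with the two-sided quasi-likelihood test of edgeR 4.0.16 (run in R 4.3.3 with limma 3.58.1), with Benjamini-Hochberg adjustment over 14113 genes and a threshold of 0.05. The script was tested on simulated data. Log2 changes are contact minus transwell, with SE as the change over the root of F. Replicates differed by a chi-square of 5.895 to 22.75 per degree of freedom, so none were merged. The members and lists were chosen with earlier results of these data known. All members are named; other genes are named by a fixed rule on list, call and level, and 1 gene that the rule names is not reported here. Alternatives were other filters, scalings, limma on log2(FPKM + 1) or log2(FPKM + 0.1), DESeq2 1.42.0, a replicate block and each library left out. Figures were drawn with matplotlib 3.10.9.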

Additional observations from a re-analysis of the deposited data

How the results depend on the processing

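Of 381 values of the 25 tested junction genes under 16 alternatives, 363 kept their direction and side of the threshold and none reversed. The 15 genes that rose from under 1 FPKM were called under every alternative that tested them, 13 of them with a filter on mean FPKM of at least 1. The other changes were Pkp2, whose call 12 alternatives ended, Ctnnd1, which 4 called higher, and Nectin4, which 2 called lower. Genes called lower in the set therefore numbered 1 and not 2 with the filter on mean FPKM, upper-quartile scaling, library totals only, DESeq2, either limma fit and a filter that kept genes with 1 FPKM or more in transwell libraries, the last chosen after seeing the data. That filter gave 4 members called higher, 10 other junction genes higher and 1860 genes higher in all, by its construction, since it leaves out genes low in transwell. The filter on mean FPKM of at least 1 gave 16 other junction genes higher, with fewer genes tested. Genes called lower in all numbered 1450 with library totals only and 1422 and 1442 in limma with pseudocounts of 1 and 0.1. The median log2 change of the set was 1.47 and 3.37 in those limma fits, where the pseudocount shrinks changes of low genes. Without each library in turn, members called higher numbered 18, members called lower 1 to 2, other junction genes higher 31 to 36, regulators higher 4 to 6, and all genes 2465 to 3093 higher and 1577 to 2217 lower; the median was 4.13 to 4.35. A transwell replicate and its contact namesake share only a number: their deviations correlated at -0.083, -0.445 and 0.056, and no library correlated best with its own number. With that number as a replicate block, 18 members were higher and 2 lower. Library totals only moved the median of all genes by 0.12 and limma with 0.1 by 0.11. Median-ratio scaling called 3 members lower. Depth limits what can be said of Cldn4, Cldn7, Ocln, Gjb2 and Gjb5. With no filter on low counts, where they were tested too, 20 members were called higher and not 18. Of these, 17 and not 15 were under 1 FPKM in transwell libraries.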
